A study of Rattus norvegicus with 6 samples.

Results

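Cytotoxic lymphocytes kill other cells by releasing granules, and the genes described here encode the parts of that program. They are 10 gene symbols chosen by name: the granzymes Gzma, Gzmb and Gzmk, the pore-forming protein Prf1, the granule membrane protein Nkg7, the receptors Klrd1 and Klrk1, the cytokine Ifng, and the transcription factors Tbx21 and Eomes. All 10 symbols were found, in 11 of the 30957 rows of the gene table, because Gzmb has a 2nd row, which held no count in any library. RNA of these genes was close to absent from the spinal cord of sham-operated rats and was counted in every library of rats with bone cancer pain (BCP). Klrk1 rose from 0.293 ± 0.212 to 26.3 ± 5.34 CPM (counts scaled to the library's size, mean ± SD, n = 3) and Prf1 from 0.23 ± 0.212 to 10.5 ± 2.4 CPM. Ifng had no count in a sham library and 1.56 ± 0.214 CPM in BCP libraries. In all 10 rows with counts, every BCP library was above every sham library, which also held for 21.7% of all genes tested. The 9 tested rows passed a filter on low counts only through BCP libraries. This count therefore supports no statement about the list.

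Natural killer (NK) cells and CD8+ T cells store perforin and granzymes in secretory granules. Perforin opens a path into the target cell, and granzymes then cleave proteins there and start its death. Receptors such as Klrk1 and the Klrd1 heterodimers sense stressed cells or MHC class I-like molecules and set whether the granules are released, while T-box factors turn on Prf1, granzyme genes and Ifng. Such cells are scarce in the healthy spinal cord.

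The comparison was between 3 samples of BCP and 3 of sham-operated female Wistar rats, with 1 library per sample, and the tissue was taken on day 14. Living Walker 256 cells, a rat mammary carcinoma line, had been placed in the marrow cavity of the left tibia of BCP rats, and the sham operation placed heat-killed cells of the same line there, so surgery and tumor cell material were shared by both groups. The tissue was the ipsilateral lumbar enlargement without meninges, as bulk RNA depleted of ribosomal RNA. In bulk tissue, more cells of a type and more RNA per cell cannot be told apart. Nothing in the labels names the animal behind a library or says whether tissue was pooled, so p-values measure the spread between these samples.

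Counts on genes totaled 11779485 to 15004290 a library, and 14908 genes passed the filter on low counts. A gene was called up-regulated when its p-value, adjusted over all genes tested by the Benjamini-Hochberg method, was under 0.05 in edgeR's quasi-likelihood test and its fold change was over 2. The spinal cord was represented by its own markers in every library, with 1890 ± 52.2 CPM of the neuronal gene Snap25 in sham and 1810 ± 88.2 CPM in BCP libraries, and with the lumbar genes Hoxc10 and Hoxd10. The astrocyte gene Aqp4 had 28568 counts in BCP library 1 against 5037 and 4775 in the other BCP libraries. BCP library 1 was also lowest in 7 of the 10 effector genes.

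Of the 10 effector genes with counts, 9 were tested and all 9 were called up-regulated, beside 6.35% of all genes tested, while 0.107% of all genes tested were called lower. Libraries did not overlap between groups, with BCP higher, in 21.7% of all genes tested. Neither count supports a statement about the list, because the highest sham count of a tested effector gene was 7 and each passed the filter only through its BCP libraries. Of 3872 genes with at most 12 sham counts in total and counts in BCP libraries, 116 were tested and 114 of these were called up-regulated. Gzma was left out by the filter. The median fitted log2FC of the 9 genes was 6.10, and it was 5.11 with the genes of 3 or fewer sham counts set at their bound or at the ratio to 3 counts, while the median over all genes tested was -0.01. Counts of 3 or fewer make a ratio imprecise, and such genes are given below with the 95% interval of the ratio of summed counts, which covers counting error only.

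**Figure D1:**
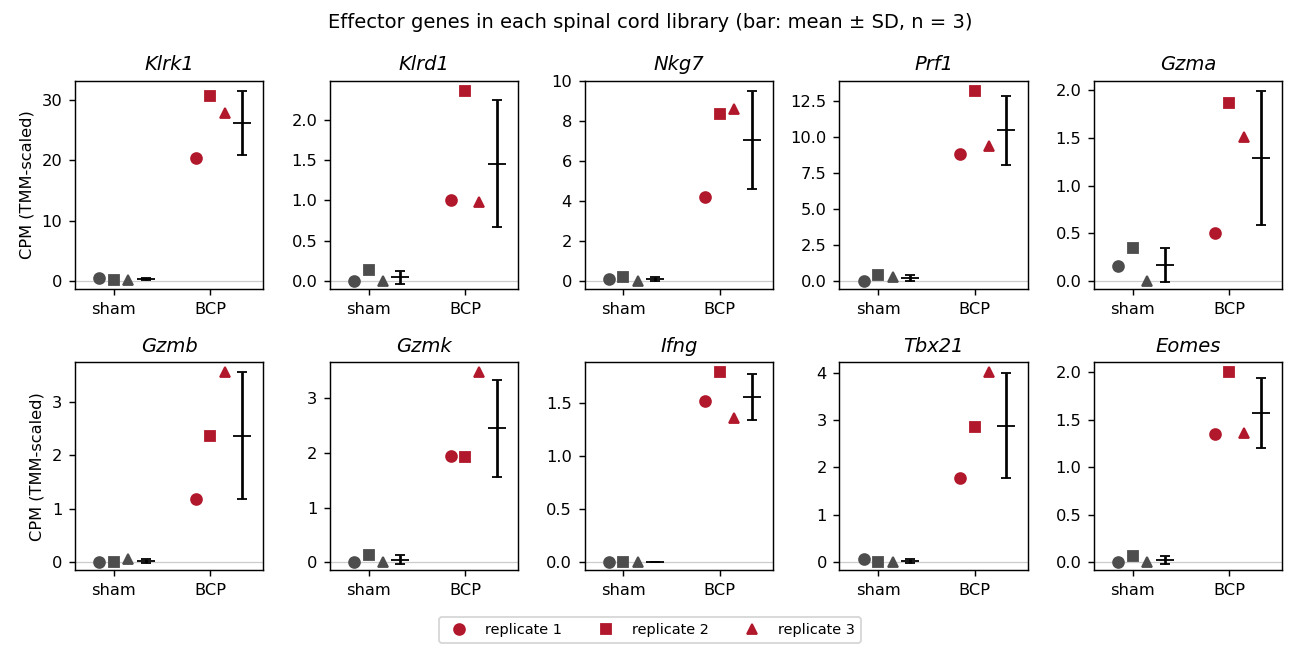
TMM-scaled CPM (y axis, a separate linear scale for each gene) of the 10 effector genes in the 3 sham libraries (grey) and the 3 BCP libraries (red), with the replicate number as the symbol and bars at the mean ± SD. Every BCP point lies above every sham point of the same gene, and BCP replicate 1 is the lowest BCP point in 7 of the 10 panels.

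Klrk1, the gene of the activating receptor NKG2D, had the highest counts of the list. It lies at 4:163393217-163403653 in Rnor_6.0 and was counted 7, 3 and 2 times in sham libraries 1 to 3 and 241, 430 and 367 times in BCP libraries 1 to 3. The groups were far apart and no BCP library stood alone. Its log2FC was 6.49 (SE 0.29, adjusted p = 1.09e-10 in edgeR's quasi-likelihood test), a ratio of summed counts of 93.6 with an interval of 53.4 to 182. Klrd1, which encodes CD94, the partner of the NKG2A and NKG2C chains, lies at 4:163358009-163369854 and was counted 0, 2 and 0 times against 12, 33 and 13 times. BCP library 2 held more than the other BCP libraries together. The summed counts differed 31.4-fold (8.3 to 265), with a fitted log2FC of 4.71 (SE 0.76, adjusted p = 0.000101 in edgeR's quasi-likelihood test).

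The granule proteins of the list followed the same pattern in counts, and the promoters of 3 of their genes are shown with that of Klrk1, because these genes were at or near 0 in sham libraries and present together in BCP libraries. The sequences are the 250 bases before the gene start in RefSeq's GRCr8 assembly, on the gene's own strand, and capitals mark matches to the Runx core TGTGGT or the T-box core AGGTGT on either strand. The windows lie at chr20:29788790-29789039 (plus strand, Prf1), chr15:34462470-34462719 (minus strand, Gzmb), chr2:46485697-46485946 (minus strand, Gzma) and chr4:164778383-164778632 (minus strand, Klrk1), which are not positions of the build of the counts.
Prf1: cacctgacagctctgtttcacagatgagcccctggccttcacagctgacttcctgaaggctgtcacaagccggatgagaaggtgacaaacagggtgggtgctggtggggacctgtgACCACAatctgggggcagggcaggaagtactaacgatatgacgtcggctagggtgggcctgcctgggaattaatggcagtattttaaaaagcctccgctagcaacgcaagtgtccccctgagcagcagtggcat
Gzmb: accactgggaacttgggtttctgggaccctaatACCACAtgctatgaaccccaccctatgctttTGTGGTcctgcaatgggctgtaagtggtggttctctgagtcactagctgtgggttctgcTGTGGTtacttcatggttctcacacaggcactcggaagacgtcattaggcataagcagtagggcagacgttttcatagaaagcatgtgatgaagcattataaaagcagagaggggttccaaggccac
Gzma: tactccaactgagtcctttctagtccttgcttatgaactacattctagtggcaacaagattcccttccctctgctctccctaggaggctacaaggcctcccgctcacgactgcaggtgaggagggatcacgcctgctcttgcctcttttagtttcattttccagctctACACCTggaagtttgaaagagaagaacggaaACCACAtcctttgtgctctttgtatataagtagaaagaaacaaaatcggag
Klrk1: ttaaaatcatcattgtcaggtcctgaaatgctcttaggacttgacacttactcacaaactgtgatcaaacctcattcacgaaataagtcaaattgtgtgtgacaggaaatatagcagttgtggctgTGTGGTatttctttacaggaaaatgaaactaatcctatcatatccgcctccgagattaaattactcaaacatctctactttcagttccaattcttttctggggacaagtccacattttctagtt
Gzmb held the Runx letters at 3 places and Prf1, Gzma and Klrk1 at 1 place each. The T-box letters were found in the Gzma window only among these, 82 bases before the start. TATAAA stood 30 bases before the start of Gzmb.

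Promoters were matched for 9 of the 10 effector genes, and Klrd1 had no entry. The Runx letters were present in 7 of these 9 windows, in all but those of Ifng and Tbx21, and in 14.5% of all 33469 promoter windows. The T-box letters were present in 1 of 9, against 11.6% of all windows. TTCNNNGAA, the letters of a STAT site, stood in the windows of Nkg7 and Gzmb (7.67% of all windows), and the letters of an interferon-stimulated element (GAAA, any 2 bases, GAAA) in those of Gzma, Klrk1 and Eomes (3.41% of all windows). TGANTCA, the AP-1 letters, were found in that of Gzmb (6.34% of all windows), and TATAAA in those of Gzmk, Ifng and Gzmb (12.9% of all windows). The motifs were picked after the windows had been seen, both strands were searched, and a match is a description of letters and not a bound site.

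Prf1 encodes perforin and lies at 20:30915213-30921382. It was counted 0, 6 and 4 times in sham libraries and 104, 185 and 124 times in BCP libraries, so the lowest BCP library was far above the highest sham library. Its log2FC was 5.42 (SE 0.38, adjusted p = 1.74e-08 in edgeR's quasi-likelihood test). Nkg7, whose product sits in the granule membrane and takes part in granule release, lies at 1:98492828-98493978 and was counted 1, 3 and 0 times against 50, 117 and 114 times. BCP library 1 had the lowest value, below both other BCP libraries, and the log2FC was 6.10 (SE 0.51, adjusted p = 1.8e-07 in edgeR's quasi-likelihood test).

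The granzymes were counted less often than Prf1, and their balance differed between BCP libraries. Gzmb, the granzyme that cleaves caspases, lies at 15:35413793-35417316 and was counted 0, 0 and 1 times in sham libraries and 14, 33 and 47 times in BCP libraries. The summed counts differed 102-fold (17.8 to 4060, adjusted p = 4.35e-06 in edgeR's quasi-likelihood test). The other Gzmb row, at 15:36327721-36472346, and the rows of the related granzymes Gzmc and Gzmn were at 0 in all libraries, and since it is not stated how reads that fit several copies were counted, the split of reads among them is uncertain. Gzmk, a granzyme of trypsin-like specificity, lies at 2:45068967-45077219 and was counted 0, 2 and 0 times against 23, 27 and 46 times, a 51.9-fold ratio of summed counts (14 to 435, adjusted p = 2.14e-06 in edgeR's quasi-likelihood test).

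Gzma, the neighbouring trypsin-like granzyme at 2:44968765-44981458, was counted 2, 5 and 0 times in sham libraries and 6, 26 and 20 times in BCP libraries. It had the smallest gap of the list, a single count between the highest sham and the lowest BCP library, and a ratio of summed counts of 8.04 (3.64 to 21). In CPM it went from 0.167 ± 0.175 to 1.29 ± 0.702. It entered the test in 5 of 16 alternative settings and was called up-regulated in each of these by edgeR's quasi-likelihood test, with adjusted p-values of 0.000409 to 0.0197.

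Ifng encodes interferon-gamma, the cytokine that NK and T cells secrete to activate macrophages and antigen presentation. It lies at 7:61337381-61341419 and was counted 0 times in each sham library and 18, 25 and 18 times in BCP libraries, the closest BCP values of the list in CPM, which differed 1.31-fold from lowest to highest. Against a floor of 3 counts over the sham group, Ifng was at least 22-fold higher in BCP libraries (adjusted p = 4.3e-06 in edgeR's quasi-likelihood test).

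Tbx21, which encodes T-bet, and Eomes are the T-box factors that direct the effector program. Tbx21 lies at 10:85032799-85049331 and was counted 1, 0 and 0 times in sham libraries and 21, 40 and 53 times in BCP libraries. Its summed counts differed 123-fold (21.7 to 4910, adjusted p = 4.27e-07 in edgeR's quasi-likelihood test). Eomes, at 8:127144903-127151493, was counted 0, 1 and 0 times against 16, 28 and 18 times, a 67.1-fold ratio (11.6 to 2690, adjusted p = 5.51e-06 in edgeR's quasi-likelihood test). Both factors were counted in every BCP library and at most once in any sham library.

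Levels were compared between genes on the authors' FPKM, which are scaled to gene length. In BCP libraries Klrk1 was highest at 14.7 ± 3.06 FPKM, followed by Nkg7 at 8.15 ± 2.89, Prf1 at 4.21 ± 0.984, Ifng at 3.09 ± 0.428 and Gzmk at 2.23 ± 0.823 FPKM. Gzma had 1.48 ± 0.807, Tbx21 1.21 ± 0.475, Klrd1 0.845 ± 0.459, Eomes 0.759 ± 0.182 and Gzmb 0.728 ± 0.369 FPKM. The BCP libraries of Klrk1 did not overlap those of Nkg7, and every other pair of neighbours in this order overlapped. The low place of Gzmb depends on the length behind its FPKM, since the count and the FPKM correspond to 3302 bases for Gzmb against 889 for Gzma and 1116 for Gzmk, and 3302 bases is close to the whole span of the row, 3524 bases. In sham libraries all 10 genes had mean levels of at most 0.185 FPKM, and Ifng was listed at 0. Of the summed FPKM of Gzma, Gzmb and Gzmk in BCP libraries 1, 2 and 3, Gzma made up 21.4%, 46.1% and 28.9%. Gzmb made up 13.4%, 15.8% and 18.3%, and Gzmk 65.2%, 38.1% and 52.9%. On FPKM, Gzma led in BCP library 2 and Gzmk in the other BCP libraries. By counts, Gzmb was highest of these genes in BCP libraries 2 and 3 (33 and 47) and Gzmk in BCP library 1 (23). The order therefore depends on the lengths behind the FPKM.

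**Figure D2:**
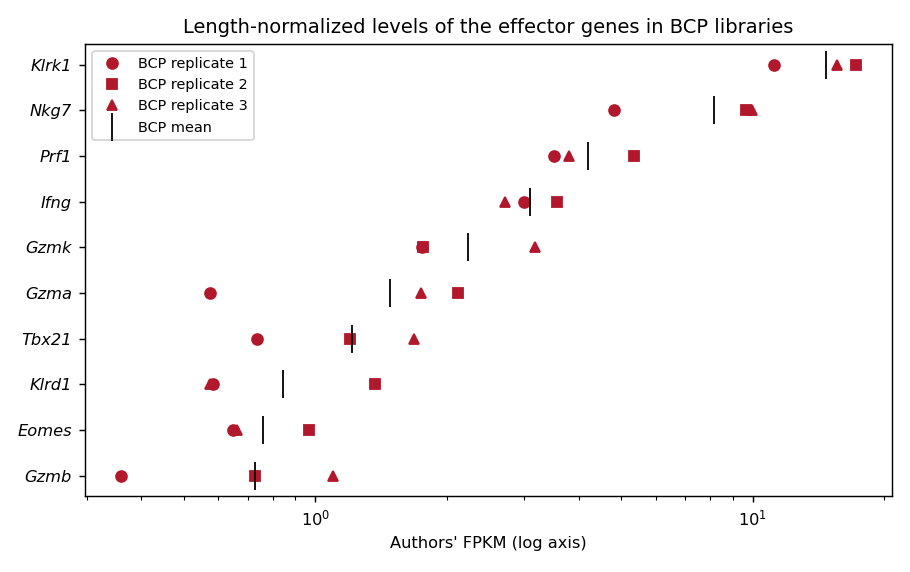
Authors' FPKM (x axis, log scale) of each effector gene in the 3 BCP libraries, marked by replicate, with a vertical line at the mean. Klrk1 lies highest, with no BCP library below any of the Nkg7 libraries, and the ranges of the genes below it overlap with their neighbours.

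The summed level of the 10 genes was 0.473 to 1.54 CPM in sham libraries and 42.7, 67.5 and 62.1 CPM in BCP libraries 1, 2 and 3. The summed level of the T cell receptor genes Cd3e, Cd3d and Cd3g differed between the BCP libraries in the same order, with 7.44, 11.6 and 11.4 CPM. Set against that sum, the 10 genes made up 574%, 579% and 547%, so the ratio of the highest to the lowest BCP library was 1.06, compared with 1.58 in CPM. For Klrk1 alone the ratio to the Cd3 sum was 274%, 264% and 245%. For Prf1 it was 118%, 113% and 82.7%, whereas Gzma varied from 6.82% to 16%, Gzmb from 15.9% to 31.3% and Klrd1 from 8.67% to 20.2%. Klrk1, at 20.4, 30.7 and 27.8 CPM, was the largest part of the effector sum. The order of the BCP libraries was not particular to the Cd3 genes, since the interferon-gamma response genes summed to 2230, 2920 and 2660 CPM. Microglia markers had another order, with sums of 707, 750 and 846 CPM. These are descriptions of 3 libraries, and the genes of small counts carry a wide counting error.

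Markers of T cells moved with the effector genes. Of 11 T cell markers, 7 were tested and all 7 were called up-regulated, beside 6.35% of all genes tested, and the summed level of the 11 was 6.79 to 7.75 CPM in sham and 48.4 to 57 CPM in BCP libraries. Cd3e, Cd3d, Cd3g, Cd2 and Cd8a had few or no sham counts and passed the filter only through BCP libraries, like the effector genes. Cd3e was counted 0, 0 and 1 times in sham libraries and 56, 104 and 111 times in BCP libraries, Cd8a 0, 2 and 1 times against 54, 97 and 80 times, and Cd8b 0 times in each sham library against 8, 33 and 26 times. Cd4, which rat microglia and macrophages also express, went from 58, 81 and 77 counts to 303, 287 and 260 counts. Ncr1, which encodes the NK cell receptor NKp46, was counted 1, 0 and 0 times in sham and 1, 6 and 0 times in BCP libraries, so it was near 0 in both groups. Other genes of the NK receptor list varied, and several, such as Ncr3, were near 0 in both groups as well. Klrb1c was counted 0, 0 and 1 times against 10, 12 and 16 times and was called up-regulated. Klre1 and Ncr3 were not tested, with 2, 2 and 3 against 9, 9 and 7 counts and 0, 1 and 2 against 2, 4 and 2 counts. The part of T cells and of NK cells in the effector gene result was not tested. Of the regulators of other T cell lineages, Gata3 and Bcl6 were tested and not called, with log2FC of 0.80 and 0.24, and Foxp3 had 3 to 5 counts in sham and 4 to 7 in BCP libraries.

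Other blood and immune markers were also measured beside them. The summed level of the 6 B and plasma cell markers was 0.458 to 0.608 CPM in sham and 0.93 to 1.36 CPM in BCP libraries, and that of the 8 mast cell markers 0.0676 to 0.489 and 0.454 to 1.18 CPM, with no marker of either list past the filter and the mast cell genes Mcpt1 and Tpsb2 at 0 throughout. The 6 neutrophil markers summed to 0.153 to 0.743 and 2.12 to 5.41 CPM, highest in BCP library 1, and S100a8, the only one tested, was called up-regulated. Of the 4 red blood cell markers 3 were called up-regulated, beside 6.35% of all genes tested. Their sum was 177 to 183 CPM in sham and 306 to 470 CPM in BCP libraries. Of the 7 microglia markers 4 were called up-regulated, also beside 6.35%, with sums of 308 to 376 and 707 to 846 CPM. Among the 6 monocyte and border macrophage markers Plac8 was called up-regulated, their sum was 18.5 to 19.9 CPM in sham and 95.7 to 131 CPM in BCP libraries, and the defining monocyte receptor Ccr2 had 0 counts in each sham and 1 in each BCP library. Plac8 itself went from 3.13 ± 1.89 to 99 ± 16.1 CPM, whereas F13a1 (log2FC -0.15), Mrc1 (0.17), Cd163 (-0.27) and Lyve1 (-0.52) were not called. Dendritic cell markers summed to 45.2 to 50.1 and 44.7 to 46.8 CPM, nerve root markers to 76 to 89.5 and 59.7 to 75.1 CPM, and epithelial tumor markers to 1.14 to 2.09 and 2 to 2.54 CPM. The tested genes of these lists, such as Flt3 (log2FC -0.11, adjusted p = 0.344 in edgeR's quasi-likelihood test) and Krt18 (0.82, adjusted p = 0.164), were not called. Flt3 made up most of the dendritic cell sum, with means of 40.6 CPM in sham and 37.8 CPM in BCP libraries. Batf3 of the same list was not tested and had 0 counts in each sham library and 8, 6 and 2 counts in BCP libraries. Clec9a, also not tested, had 1, 5 and 0 against 3, 3 and 10 counts, with groups that overlap. The part of these cells in the effector gene result was not tested.

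The genes that act with the list were taken as 10 further groups of 109 rows with the effector genes left out. Of these, 86 were tested and 54 were called up-regulated (62.8%, beside 6.35% of all genes tested), 32 were not called, and the median log2FC was 1.96. Many of them were also low in sham libraries and passed the filter through BCP libraries, so this share is not independent of the filter. The same limit applies to the count of each group below.

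Granule contents and granule release changed in part. Of the 6 tested genes of granule contents, 4 were called up-regulated. For this group and the next ones the share over all genes tested was 6.35%. Ctsw, a cathepsin of cytotoxic cells, was counted 0, 3 and 0 times in sham and 52, 57 and 99 times in BCP libraries (75-fold, 25.3 to 367). Ctsc, the protease that activates pro-granzymes, had a log2FC of 3.65 (adjusted p = 0.00177 in edgeR's quasi-likelihood test). Lamp1, a lysosomal membrane protein of all cells, and Serpinb9, an inhibitor of granzyme B, were not called at log2FC of -0.16 and 0.77. Of the 8 tested genes of granule transport and fusion, 3 were called up-regulated, with log2FC of 1.86 for Stxbp2 and 1.43 for Unc13d, both needed for the fusion of granules. Unc13d was not past a test against a fold change of 2 (adjusted p = 0.212 in edgeR's test). The broadly expressed trafficking genes Lyst and Ap3b1 were not called at log2FC of 0.12 and 0.30. Of the 6 tested genes of death ligands and the death pathway, the receptor Fas and the caspase Casp8 were called up-regulated at log2FC of 1.76 and 1.92, whereas the ligand Tnfsf10 (-0.24, with groups that overlap) was not called. Faslg, the ligand of Fas, stands in the table under another symbol than the list's and was counted 32, 9 and 20 times in sham and 37, 39 and 43 times in BCP libraries. It was called up-regulated at a log2FC of 1.07 (adjusted p = 0.0279 in edgeR's quasi-likelihood test), but missed the threshold when any library other than sham library 1 was left out (adjusted p = 0.0527 to 0.134).

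Of 20 further receptor genes, 8 were tested and all 8 were called up-regulated, beside 6.35% of all genes tested. Klrc1, Klrc2 and Klrb1c had 0 to 2 sham counts in total and passed the filter only through BCP libraries. The count of calls therefore supports no statement about the receptors as a group. Klrc1, which encodes the inhibitory NKG2A, had no count in a sham library and 39, 33 and 33 counts in BCP libraries (at least 37.9-fold higher), and Klrc2, which encodes the related NKG2C, had 1, 0 and 1 counts against 71, 88 and 76 counts (127-fold, 34.8 to 1060). The 2 genes are close copies, so the split of reads between them is uncertain. Fcgr3a, an Fc receptor of NK cells, macrophages and microglia, went from 40, 48 and 49 to 471, 625 and 755 counts, a log2FC of 3.86 (adjusted p = 9.18e-12 in edgeR's quasi-likelihood test). Several others stayed near 0, and Klrg1 was counted 3 times in a single BCP library. Of the ligands of the Klrk1 receptor and related genes, 2 of the 6 symbols were found. Mill1 had a log2FC of -0.25 and was not called, and Raet1d was counted 5 times in BCP library 2 and 0 times elsewhere.

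Of the 14 tested adaptors and kinases, 12 were called up-regulated, beside 6.35% of all genes tested. Cd247, the zeta chain of the T cell receptor and of NK receptors, was counted 0, 2 and 0 times in sham and 53.6 times as often in BCP libraries (14.4 to 448). Hcst, the adaptor DAP10 of Klrk1, did not pass the filter and was counted 0, 2 and 0 times against 7, 30 and 19 times (30.3-fold, 8.01 to 256), again lowest in BCP library 1. Tyrobp, the adaptor DAP12 that microglia also use, had a log2FC of 2.20. Plcg1 and Fyn, expressed in neural tissue as well, were not called at log2FC of -0.10 and -0.01, and the sign for Fyn turned when library size alone was used for scaling (0.03).

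Among the 9 other transcription factors, all tested, Runx3 and Prdm1 were called up-regulated, against 6.35% of all genes tested. Runx3, a factor of CD8+ T and NK cells, had no count in a sham library and 28, 43 and 49 counts in BCP libraries (at least 43.3-fold higher), and Prdm1, which encodes Blimp-1, had a log2FC of 2.78 (adjusted p = 1.61e-08 in edgeR's quasi-likelihood test). Zeb2 (-0.11) and Bhlhe40 (0.56), which are widely expressed in the cord, were not called. Beside 6.35% of all genes tested, 9 of the 10 tested cytokines and receptors were called up-regulated. They included Il12rb1, a chain of the interleukin 12 receptor (2, 1 and 0 sham counts, 26.3-fold, 8.66 to 131), and Il18r1, a chain of the interleukin 18 receptor (0, 0 and 3 sham counts, 20.6-fold, 6.69 to 103). Of the ligands, Il18 was called up-regulated at a log2FC of 1.97 (adjusted p = 1.73e-09 in edgeR's quasi-likelihood test). The interleukin 12 subunit gene Il12a was not called at a log2FC of -0.42, and the other subunit gene Il12b did not pass the filter, with 0 counts in each sham library and 15, 8 and 10 counts in BCP libraries (at least 11.9-fold higher).

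Genes of the interferon-gamma response divided by gene. Of 16 tested, 8 were called up-regulated, beside 6.35% of all genes tested. The largest log2FC was that of Ciita, the activator of MHC class II genes, at 8.29 (adjusted p = 1.16e-12 in edgeR's quasi-likelihood test). Ciita had 3, 2 and 1 sham counts and passed the filter only through BCP libraries. The chemokine gene Cxcl9 followed with 5.73 (adjusted p = 0.00112 in edgeR's quasi-likelihood test). The chains of the interferon-gamma receptor, Ifngr1 and Ifngr2, had log2FC of 0.64 and 0.96 and were below the 2-fold threshold, as was the kinase Jak1 at 0.23. Cxcl10, a chemokine gene of the same response, had 449, 258 and 48 sham counts against 1816, 3106 and 2016 BCP counts, with an adjusted p of 0.0383 that missed the threshold when sham library 2 or any BCP library was left out (0.0858 to 0.134). Sham library 3 was lowest in Cxcl9 and Cxcl10, while Ifng was at 0 in all sham libraries.

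Of the 8 tested chemokines and receptors of cytotoxic lymphocytes, 6 were called up-regulated, beside 6.35% of all genes tested. The receptor gene Cxcr6 had no count in a sham library and 28, 46 and 27 counts in BCP libraries (at least 36.4-fold higher), and Ccl3, a chemokine made by activated lymphocytes and microglia, had 1, 0 and 0 counts in sham libraries and 128 times as many in BCP libraries (22.5 to 5090). S1pr1 and S1pr5, receptors for sphingosine 1-phosphate that neural cells also carry, were not called at log2FC of -0.21 and -0.29.

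**Figure D3:**
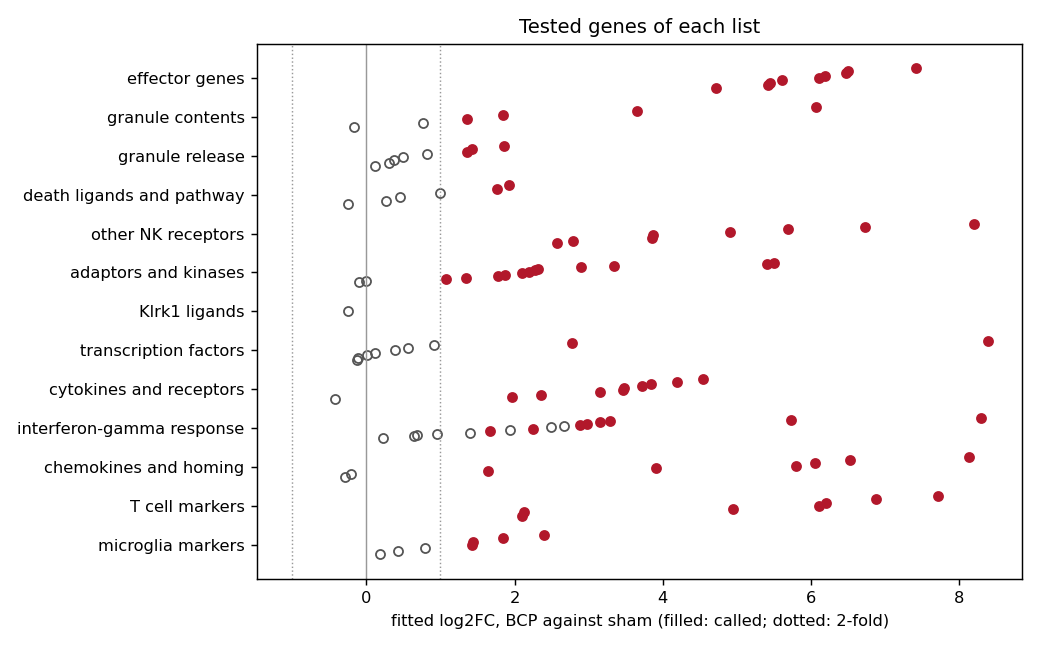
Fitted log2FC of BCP against sham libraries (x axis) for every tested gene of the effector list, the 10 groups of related genes, and the T cell and microglia markers (rows). Filled points were called at an adjusted p under 0.05 and more than 2-fold, dotted lines mark 2-fold, and points far to the right with no sham counts depend on the prior count of the fit. All points of the effector genes, other NK receptors and T cell markers are filled, while granule release, death pathway and transcription factors hold more open than filled points.

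The deposited annotation assigns 92 rows to the pathway of NK cell mediated cytotoxicity. Without the effector genes that it holds, 72 were tested and 27 were called up-regulated (37.5%, beside 6.35% of all genes tested), 45 were not called, and the median log2FC was 0.16.

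Klrk1 and Klrd1 lie close to each other in a cluster of C-type lectin receptor genes on chromosome 4. Within 500 kb of the Klrk1 row there were 27 gene rows, of which 22 had counts and 12 were tested, and 9 of these were called up-regulated, Klrk1 and Klrd1 among them, beside 6.35% of all genes tested. Klrk1, Klrd1, Klrc1, Klrc2, Cd69 and Clec7a had 0 to 13 sham counts in total and passed the filter only through BCP libraries. The called genes besides Klrk1 and Klrd1 were Klrc1, Klrc2, the lymphocyte activation gene Cd69, Clec2g, and the genes Clec12a, Clec7a and Olr1, which encode receptors of myeloid cells. Cd69 had no sham count and 2.53 CPM in BCP libraries, and Clec7a went from 0.307 to 34.4 CPM, while Chtop, Clec1a and Gabarapl1 in the same stretch were not called at log2FC of 0.20, 0.55 and -0.24. These neighbours were named after their values were seen, except those that are members of the lists. Other effector genes were compared with the genes within 250 kb of them. The 6 tested neighbours of Prf1 had log2FC of -0.22 to 0.92, the 12 of Tbx21 -1.13 to 0.18 and the 3 of Eomes -0.12 to -0.09, and these were not called. Of the 7 tested neighbours of Nkg7, Cd33, a receptor gene of myeloid cells, was called up-regulated (log2FC 1.73, adjusted p = 4.14e-06 in edgeR's quasi-likelihood test). Gzma and Gzmk lie within 250 kb of each other, and RGD1561161, near both, was called up-regulated (log2FC 1.51, adjusted p = 2.72e-05 in edgeR's quasi-likelihood test), so that 2 of 6 tested neighbours of Gzma, Gzmk among them, and 1 of 3 of Gzmk were called. Around Gzmb all 14 rows were left out by the filter.

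**Figure D4:**
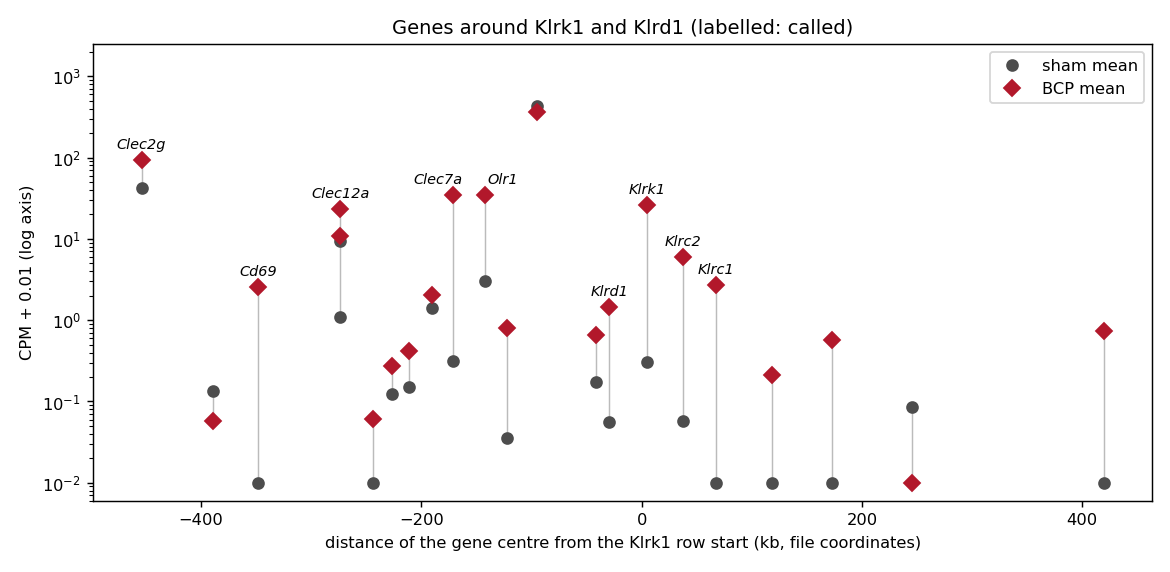
Mean CPM + 0.01 in sham (grey circles) and BCP libraries (red diamonds, y axis, log scale) of the gene rows with counts within 500 kb of the Klrk1 row, placed by the distance of the gene's centre from the start of that row in kb (x axis). A grey line joins both means of a gene, names mark the 9 genes called up-regulated, and points at the bottom had no counts in that group.

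Of the lncRNA table, 5 transcripts lay within 10 kb of an effector gene and 1 was tested. NONRATT021744.2, at 4:163393219-163401090, overlaps the Klrk1 row over 7872 bases and was counted 7, 0 and 0 times in sham and 51, 96 and 77 times in BCP libraries. Its log2FC was 5.04 (SE 0.96), with an adjusted p of 0.0833 in edgeR's quasi-likelihood test, so it was not called although its unadjusted p was under 0.05. DESeq2 called it with an adjusted p of 0.0472, beside 1.14% of lncRNAs called up-regulated by edgeR. The paper lists this transcript among the top up-regulated lncRNAs of its own edgeR comparison, at a near-equal log2FC. Sham library 1, which held all 7 sham counts, also had the highest sham count of Klrk1, and without it the log2FC was 9.29 (adjusted p = 0.00426 in edgeR's quasi-likelihood test), a value that depends on the prior count since no sham count was left. The libraries were strand-specific per the paper, but the counting is not stated to use strand, so reads of the lncRNA and of Klrk1 cannot be told apart here. The other 4 transcripts, near Nkg7, Klrd1 and Eomes, had at most 8 counts in a library.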

How the data were processed

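RNA-seq covered the lumbar enlargement in 3 samples of sham-operated and 3 of BCP rats, and groups came from the sample labels. The authors mapped reads to Rnor_6.0 with HISAT2 2.0.4 and quantified them with StringTie 1.3.0, per the labels and the paper's methods. The deposited tables hold unnormalized counts per gene and per lncRNA transcript and the authors' FPKM, which are scaled to gene length and depth. Which program counted the reads, whether it used strand and how it placed reads of repeated sequence are not given in the sources used here. Transcript lengths listed by the authors for lncRNAs were used as labels only.

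Genes and lncRNAs were fitted apart from each other on their counts (R 4.3.3, edgeR 4.0.16), with filterByExpr (minimum count 10), TMM scaling, a robust quasi-likelihood fit on condition and Benjamini-Hochberg adjustment over all rows tested. CPM are TMM-scaled. Calls needed an adjusted p under 0.05 and a fold change over 2. FPKM were used to order genes by level and for the granzymes' shares of their summed FPKM. The SE is the log2FC divided by the square root of the test statistic. Ratios of summed counts were scaled by TMM-adjusted library size and have exact 95% intervals, and the floor was 3 counts over the group. Both cover counting error only. Promoters were RefSeq's, GRCr8. Gene names came from the tables. Figures used matplotlib 3.10.9 in Python 3.11.15.

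The members and lists were chosen with earlier results of these data known. Named were all effector genes, marker genes, lncRNAs within 10 kb, and of each group the 2 called genes of largest log2FC without overlap and the 2 uncalled genes of highest mean CPM. Hcst, Tyrobp, Fcgr3a, Ncr1, Ncr3, Klrb1c, Klre1, Klrg1, Raet1d, Gzmc, Gzmn, Ifngr1, Ifngr2, Cxcl10, Faslg, Il18, Il12b, Cd33 and RGD1561161 were added after their values were seen. A few genes picked this way are not reported here. Alternatives were DESeq2 1.42.0, a likelihood ratio test, other scalings, filters and thresholds, a replicate block, and each library left out. On simulated counts with 200 changed features the gene comparison of 14775 genes recovered 100% and the lncRNA comparison of 11635 recovered 97%, with 0.99% and 4.43% false among called. The changed features were drawn from those that were not lowest in mean CPM. None was given the low sham counts and large ratios of the effector genes, so these rates do not describe them. Gene counts per library were 11779485 to 15004290 and lncRNA counts 1946315 to 2531114. Libraries of 1 group were not duplicates, since chi-square over its degrees of freedom was 3.48 to 6.04 between their gene counts. Behavior, imaging and RT-qPCR were not analysed here.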

Additional observations from a re-analysis of the deposited data

How the results depend on the processing

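In each of the 16 alternatives 9 or 10 of them were called higher, and all 144 fitted values of the 9 tested genes kept their direction and their call. The pathway genes called higher numbered 46 to 66. Of the 656 values of 41 other named genes, 628 kept direction and call, 13 lost and 10 gained a call, and 5 changed sign. The sign turned for Fyn with library size only (0.03), and without sham replicate 1 (0.02), BCP replicate 2 (0.01) or BCP replicate 3 (0.02), and for Tnfsf10 without sham replicate 1 (0.2), with ranges over the libraries left out of -0.06 to 0.02 for Fyn and -0.63 to 0.2 for Tnfsf10, and neither gene was called in any of these. With no threshold on the fold change, 2352 genes were called higher and 1805 lower, and 3 pathway genes were called lower, since the threshold is what held them back. Testing against a fold change of 2 called 548 genes higher and 0 lower. Without the filter on low counts 37 genes were called lower, and leaving out 1 library at a time gave 16 to 33. The lncRNA in Klrk1 was called (1) by DESeq2 and by the likelihood ratio test, and leaving out 1 library gave 0 to 1, the call coming without sham replicate 1. The cause of these shifts was not tested. Replicate numbers of the labels did not pair the samples, as same-numbered residuals correlated at -0.105, 0.0439 and -0.0353. With the replicate number as a block 9 effector genes, 52 pathway genes and 907 genes in all were called higher, and of the named genes Cxcl10 lost its call (adjusted p = 0.135 in edgeR's quasi-likelihood test). The lost calls were those of Cxcl10, Faslg and Unc13d. Depth limits the effector genes at the sham level, where 0 to 7 counts leave the size of the ratio wide while its direction holds.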
